A study of Mus musculus with 2 samples.

Results

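The Hox cluster miRNAs are the microRNA (miRNA) genes that lie between the Hox genes: Mir10a, Mir10b, Mir196a-1, Mir196a-2, Mir196b and Mir615. These 6 genes were chosen by name and position, and all 6 have an entry among the 1973 miRNA genes counted. They were measured by microRNA-seq of RNA under 30 nucleotides in the newborn mouse hindbrain, at an age of 0 day and in strain B6NCrl, with no treatment named and no sex recorded. The series holds 1 group of 2 libraries, replicate 1 from the single hindbrain of pup 1 and replicate 2 from that of pup 3. The labels give both pups the same donor identifier but name them as separate animals. With no second condition, the questions here are at what level each Hox cluster miRNA gene was present, in what order, and how far the pups differed. A whole hindbrain mixes many cell types and positions, so fewer cells with a miRNA and less of it per cell cannot be told apart.

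Hox genes encode homeodomain transcription factors that set the identity of segments along the head-to-tail axis. Genes of low number lie toward one end of each cluster and act further forward, in the hindbrain, while those of high number act in the trunk and tail. miRNAs of these clusters pair through their seed, bases 2 to 8, with sites in messenger RNAs and lower their output. miR-10 is known from the caudal hindbrain and spinal cord, and miR-196 is known to direct cleavage of the Hoxb8 messenger.

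The mature sequences are shown because they decide which reads can be told apart. All 6 genes matched the RefSeq miRNA table (GRCm38.p6) by symbol. Capitals mark the seed, and each sequence runs 5′ to 3′.
miR-10a-5p: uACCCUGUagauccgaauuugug
miR-10b-5p: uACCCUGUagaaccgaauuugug
miR-196a-5p (from Mir196a-1 and from Mir196a-2): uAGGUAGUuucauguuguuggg
miR-196b-5p: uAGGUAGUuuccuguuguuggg
miR-615-3p: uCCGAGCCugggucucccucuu
miR-615-5p: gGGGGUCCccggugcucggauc

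The miR-10 and the miR-196 strands each share a seed, and the strands of miR-615 share theirs with no other entry. miR-10a-5p and miR-10b-5p share the seed ACCCUGU, which no other mature miRNA of the table has, and differ by 1 base, U12A, counted from the 5′ end of miR-10a-5p. miR-196a-5p and miR-196b-5p share the seed AGGUAGU and also differ by 1 base at the same position, A12C, counted from the 5′ end of miR-196a-5p. The precursors of Mir196a-1 and Mir196a-2 share an unbroken run of 22 bases, the whole of miR-196a-5p, so a read of that miRNA matches both genes. The precursors of Mir10a and Mir10b share a run of at most 15 bases. The 3p strands of the Mir196a genes differ at 17 of 22 positions. The tables keep reads with several genomic matches in a row of their own, apart from any gene. That row held 37.9% of the reads of pup 1 and 39.4% of those of pup 3. The counts of Mir196a-1 and Mir196a-2 therefore lack reads that match both genes, and how far this lowers them was not tested.

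The 6 genes lie in all 4 Hox clusters (GENCODE M21 on mm10, GRCm38). Mir10a is on chromosome 11, 96317165 to 96317274, plus strand, in the interval between Hoxb5 and Hoxb4 and 992 bp from Hoxb4, with no gene over it. Mir10b is on chromosome 2, 74726070 to 74726137, plus strand, in introns of Hoxd3 and Hoxd4. Mir615 is on chromosome 15, 103014910 to 103015001, plus strand, in an intron of Hoxc5, between Hoxc6 and Hoxc4. Mir196b is on chromosome 6, 52230081 to 52230165, minus strand, within the annotated span of Hoxa9 and 1031 bp from Hoxa10. It overlaps an exon of 2 noncoding transcripts of Hoxa9 and an intron of another. Mir196a-2 is on chromosome 15, 102973350 to 102973434, plus strand, 1456 bp from Hoxc10 and 3004 bp from Hoxc9, in an intron of a long noncoding transcript of Hoxc5. Mir196a-1 is on chromosome 11, 96265164 to 96265265, plus strand, 6191 bp from Hoxb9 and 67716 bp from Hoxb13, with no gene over it. Mir10b and Mir196a-2 carry a later version number in that annotation than in the tables, so their limits may differ from those counted. Gm44463, another annotated miRNA gene of the Hoxd cluster, was not analysed here.

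**Figure D1:**
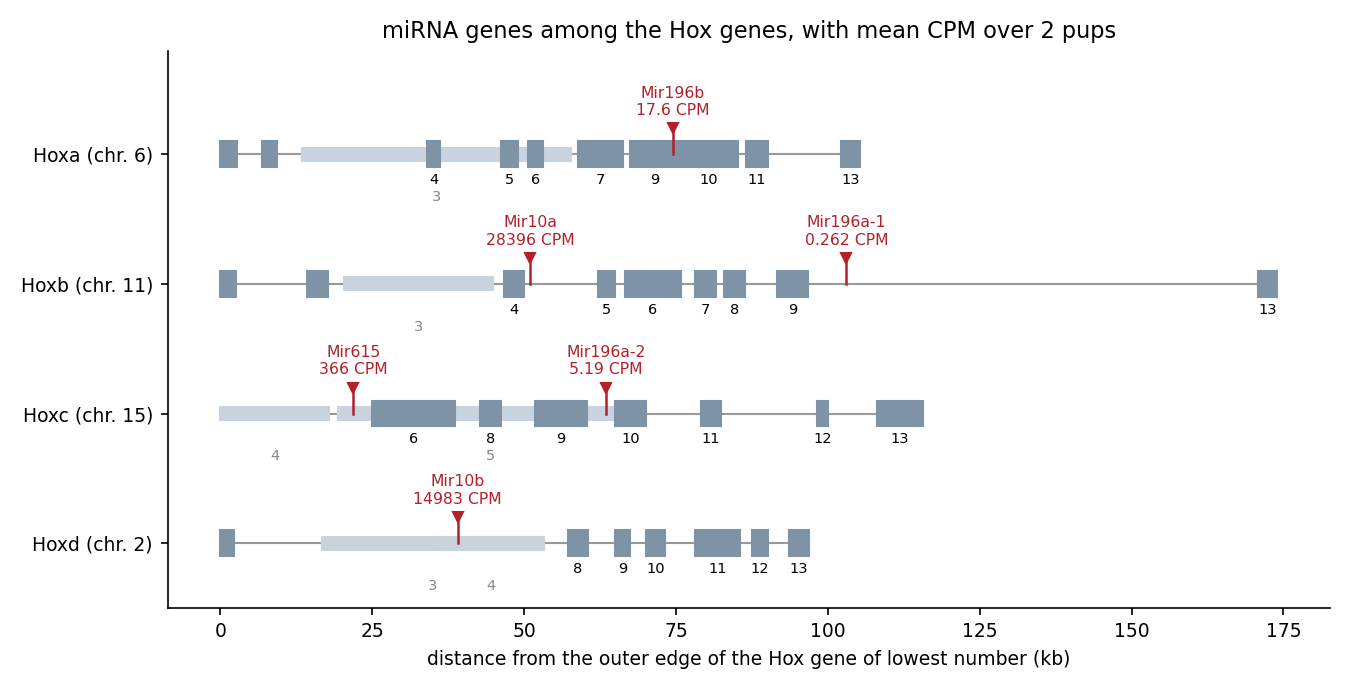
Map of the 4 Hox clusters, drawn from the Hox gene of lowest number outward (x axis, kb). Boxes are Hox genes, numbered from 3 upward, pale bars are gene models longer than 15 kb, and red marks are the miRNA genes with their mean CPM over 2 pups. Mir10a, Mir10b and Mir615, by Hox4 and Hox5, stand at 366 CPM or more. The 3 next to Hox9 and Hox10 stand at 17.6 CPM or less, and of these Mir196a-2 also lies in an intron of a Hoxc5 transcript.

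Levels are given as CPM: the reads on a gene's own strand, divided by their sum over all miRNA genes and multiplied by 1000000. A miRNA read spans the mature RNA, so no length correction was made, but ligation favours some sequences, so a ratio between genes also holds their capture. Own-strand counts summed to 4906127 in pup 1 and 6238680 in pup 3, and 3 counts are 0.611 and 0.481 CPM. Reads with several genomic matches are outside these sums, so shares and ranks are those among counted reads only. Exact binomial intervals (95%) and this floor cover counting error only. The 6 genes together took 5.26% of counts in pup 1 (5.24 to 5.28) and 3.50% in pup 3 (3.48 to 3.51). Mir10a and Mir10b made up 99.1% of this in each pup.

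The miR-10 genes stood far above the rest. Mir10a, which yields the miR-10 that lies beside Hoxb4, had 157924 counts in pup 1 and 153486 in pup 3. These are 32189 CPM (32033 to 32346) and 24602 CPM (24481 to 24724), a mean of 28396 ± 5365 (SD, n = 2), the seventh highest of the miRNA genes. Pup 1 was the higher of the pups. Mir10b, in the introns of Hoxd3 and Hoxd4, had 97703 and 62707 counts. These are 19914.5 CPM (19791 to 20039) in pup 1 and 10051 CPM (9973 to 10129.9) in pup 3, a mean of 14983 ± 6974 (SD, n = 2), rank 13. Its pups lay further apart than those of Mir10a, with SDs of 46.5% and 18.9% of the mean, and the 2 genes did not overlap.

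Mir615, within Hoxc5, had 2092 counts in pup 1 and 1901 in pup 3. Its level was 426 CPM (408 to 445) and 305 CPM (291 to 319), a mean of 366 ± 86.1 (SD, n = 2), rank 161. Mir10b exceeded it 46.7-fold in pup 1 and 32.99-fold in pup 3.

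The miR-196 genes had the fewest counts of the set, with miR-196a-5p reads that match both Mir196a genes left out. Mir196b, within the span of Hoxa9, had 95 counts in pup 1 and 99 in pup 3, or 19.4 CPM (15.7 to 23.7) and 15.9 CPM (12.9 to 19.3), with a mean of 17.6 ± 2.47 (SD, n = 2). Mir10a exceeded it 1662-fold in pup 1 and 1550-fold in pup 3. Mir196a-2, between Hoxc9 and Hoxc10, had 36 and 19 counts, or 7.34 CPM (5.14 to 10.2) and 3.05 CPM (1.83 to 4.76). Its mean was 5.19 ± 3.04 (SD, n = 2). Mir196a-1, beside Hoxb9, had 1 count in pup 1 and 2 in pup 3, 0.204 CPM (0.00516 to 1.14) and 0.321 CPM (0.0388 to 1.16), under the floor of 3 counts in both. Only reads that match 1 of the Mir196a genes are in these values, so the place of the Mir196a genes among the others is one of counted reads, not of expression.

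By counts the order was Mir10a, Mir10b, Mir615, Mir196b, Mir196a-2 and Mir196a-1 in each pup. No 2 neighbours in this order overlapped between pups. With 2 pups a gene, an exact two-sided permutation test cannot give a p below 0.333, so no order is tested. Along the clusters, Mir10a, Mir10b and Mir615, which lie by genes of number 4 or 5, had 305 CPM or more in each pup. The 3 that lie next to Hox9 or Hox10 had 19.4 CPM or less in each pup. Of these 3, Mir196a-2 also lies in an intron of the long noncoding transcript of Hoxc5. The grouping is mixed, since Mir10b and Mir615 are placed by Hox genes whose introns hold them, but Mir196a-2 by its neighbours. By host gene Mir196a-2 would stand with Mir615. This is a description of 6 genes, 3 of them from 1 family and 2 of those undercounted, and it has no test. At a level of 2 CPM in both pups, 5 of the 6 genes were detected, all but Mir196a-1, against 20.6% of all 1973 genes. At 10 CPM, Mir196a-2 too was out and 4 were detected, against a share of all genes that can be no larger than 20.6%.

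**Figure D2:**
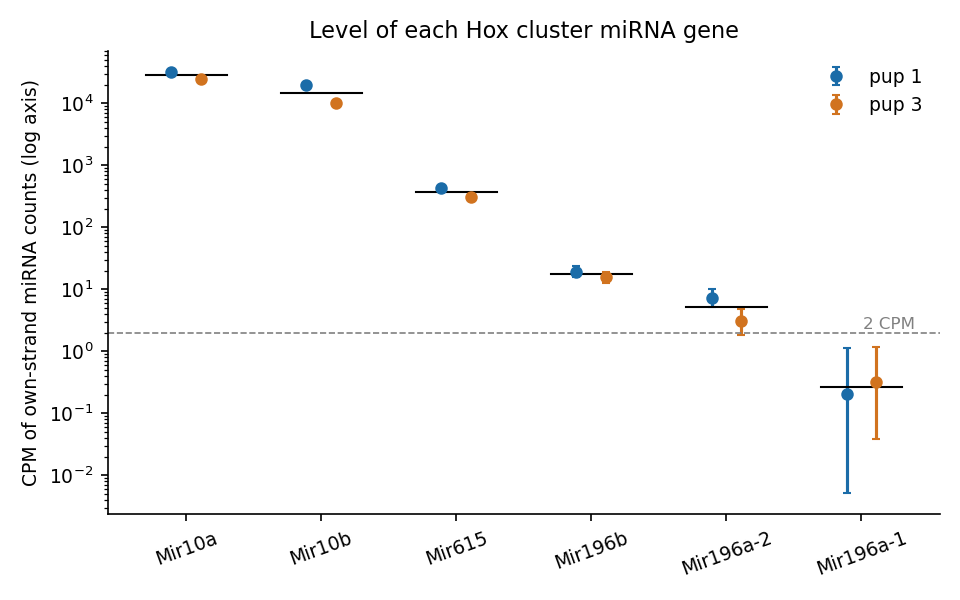
Level of each Hox cluster miRNA gene in the pups (y axis, CPM, log axis), with exact 95% counting intervals as bars and the mean as a black line. The miR-10 genes lie at 10051 CPM or more in both pups, Mir615 at 305 and 426 CPM, and Mir196a-1 below the dashed line at 2 CPM.

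Nearly all reads on these genes came from their own strand. Opposite-strand counts were 3 in each pup for Mir10a and 0 for the other 5. Over all genes they were 3.02% and 3.39% of gene counts.

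The pups were compared gene by gene with an exact two-sided binomial test of the 2 libraries, scaled by TMM, with Benjamini-Hochberg adjustment over the 508 genes with at least 10 counts in sum. The test compares these libraries and holds no spread between animals. Its log2 differences (pup 3 minus pup 1, with a pseudocount of 1 CPM) are on TMM scaling, unlike the CPM, and their SE is counting error. All 5 detected Hox cluster miRNA genes were lower in pup 3 in value, with a median log2 difference of -0.35. Over the 407 detected genes the median was -0.01, and 51.8% were lower. An adjusted p under 0.05 was reached by 4 of the 5 tested genes, Mir10a, Mir10b, Mir615 and Mir196a-2, against 48.2% of all genes tested. With a 2-fold minimum as well, 0 of the 5 were called, against 6.69% of all genes tested. At an unadjusted p under 0.05 it was the same 4 genes, against at least 48.2% of all genes tested, since adjustment never lowers a p.

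Mir10b had a log2 difference of -0.85 (SE 0.01, adjusted p of the exact test at 1e-298, the smallest value written), short of 2-fold. Of the detected genes, 8.60% differed by more. Mir10a had a log2 difference of -0.25 (SE 0.01, adjusted p of the exact test also at 1e-298), a smaller difference than that of 52.3% of the detected genes. For Mir615 the difference was -0.35 (SE 0.05, exact test, adjusted p = 7.68e-14). For Mir196a-2 it was -0.93 (SE 0.41, exact test, adjusted p = 0.0139) on 36 and 19 counts. It passed the 2-fold minimum on library totals, at -1.04, and with a pseudocount of 0.25 CPM, at -1.08. Mir196b had a difference of -0.14 (SE 0.21, exact test, adjusted p = 0.609). Mir196a-1 had too few counts to test. The common dispersion of edgeR over both libraries as 1 group corresponds to an SD of 0.48 for such a difference. The size of the difference was above this for Mir10b and Mir196a-2 and below it for the others.

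**Figure D3:**
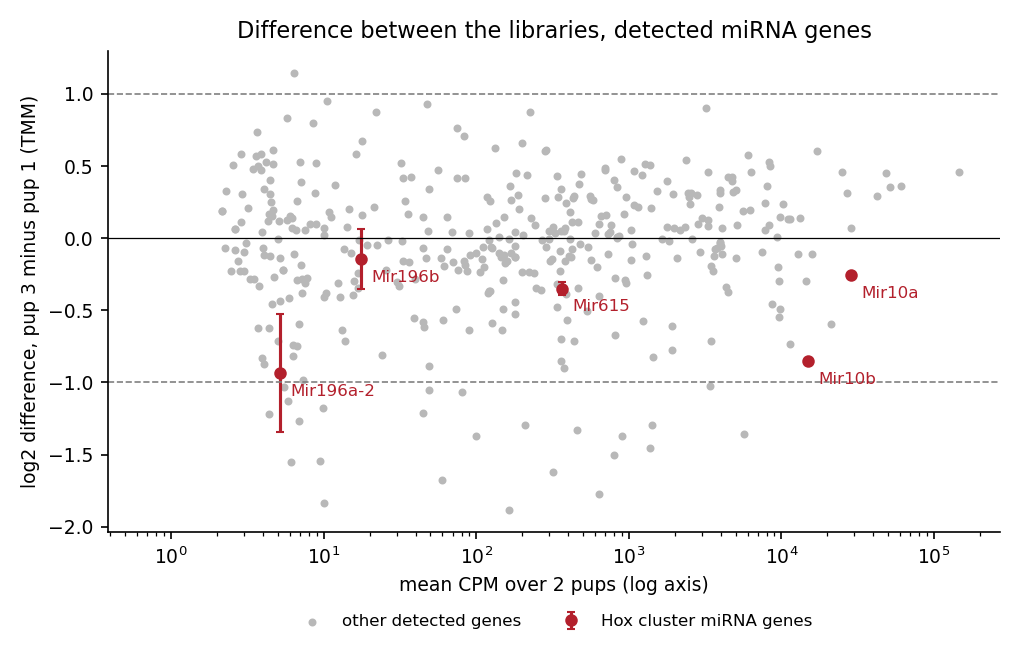
Log2 difference between the libraries (y axis, pup 3 minus pup 1, TMM scaling) against the mean CPM (x axis, log axis) for the 407 detected genes. Hox cluster miRNA genes are red, with the counting SE as bars; all 5 lie below 0, from -0.14 for Mir196b to -0.93 for Mir196a-2, and above the lower dashed line of 2-fold.

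The miR-10 genes did not shift by the same amount. Mir10a had 1.62 counts for each count of Mir10b in pup 1 (1.60 to 1.63) and 2.45 in pup 3 (2.43 to 2.47). This ratio needs no scaling between libraries. It was 1.51 times higher in pup 3 (95% Woolf interval 1.496 to 1.533, Fisher's exact test on the counts, two-sided, p at 1e-300, the smallest value written). The test covers counting error only. The mean of the ratio was 2.03 ± 0.588 (SD, n = 2).

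The miR-10 family also has 6 genes outside the Hox clusters, namely those of miR-125, miR-99 and miR-100, shown here for the offset of their seed.
miR-10a-5p: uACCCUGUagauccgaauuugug
miR-99a-5p: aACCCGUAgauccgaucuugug
miR-100-5p: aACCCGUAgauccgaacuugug
miR-125b-5p: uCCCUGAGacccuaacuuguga

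miR-10a-5p and miR-100-5p share a run of 11 bases that starts at base 7 of the first and base 6 of the second, yet their seeds differ. miR-99a-5p shares 10 bases of this run. The Hox cluster genes of the family thus have a seed of their own. Mir125b-1 and Mir125b-2 give the same miR-125b-5p, so reads of it that match both are in neither gene. The family's counts are short of these reads by an unknown number, and the Hox genes' share of the family may be overstated. Mir10a and Mir10b took 21.6% of the family's counted reads in pup 1 and 13.7% in pup 3, while the family as a whole took 24.1% and 25.3% of all counts. Outside the clusters, Mir99a had 129913 CPM in pup 1 and 162661 in pup 3, and Mir100 had 22112 and 27741. Mir99b had 17208 and 14533 CPM and Mir125a had 14667 and 8046. Mir125b-1 had 2382 and 2692 CPM, and Mir125b-2 had 2431 and 2610. Mir99a had a log2 difference of 0.46 (exact test, adjusted p at 1e-298), and Mir125a one of -0.73 (exact test, adjusted p at 1e-298). So 4 of these 6 genes were higher in pup 3 and 2 lower, and none reached 2-fold. The median log2 difference of the 6 was 0.27.

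**Figure D4:**
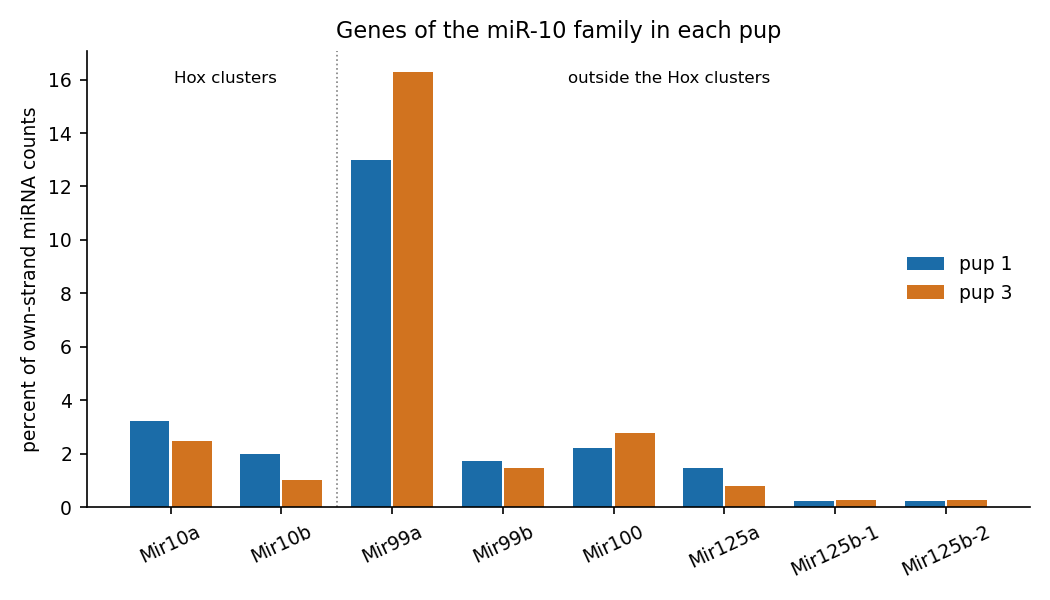
Share of own-strand miRNA counts (y axis, percent) of each gene of the miR-10 family in pup 1 and pup 3. Mir10a and Mir10b are higher in pup 1, at 3.22% and 1.99% against 2.46% and 1.01% in pup 3, and Mir99a is higher in pup 3.

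With 2 libraries, the likeness of 2 genes is the likeness of a single difference. Among the 97 genes at 1000 CPM or more in both pups, the log2 differences nearest to that of Mir10b were those of Mir16-1 at -0.78, Mir125a at -0.73 and Mir770 at -0.71. Those nearest to that of Mir10a were Mir92-1 at -0.26, Mir92b at -0.23 and Mir149 at -0.29.

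No miRNA list marks the hindbrain alone, so the tissue was checked against lists of cell types. Reads that match several genes are in none of these values. Some listed genes are numbered copies, such as Mir124a-1 and Mir124a-3 or Mir133a-1 and Mir133a-2. Shares and detection in the lists are thus those of counted reads, not of expression, and how far this lowers them was not tested. Of the neuronal list, 7 of 10 genes were detected, against 20.6% of all 1973 genes. The neuronal list held 2.24% of counts in pup 1 and 2.08% in pup 3, led in counted reads by Mir137 at 11351 ± 16.5 CPM (SD, n = 2). The choroid plexus and ependyma list had 7 of 7 detected, with 1.90% and 1.72%, and the vessel list 3 of 3, with 5.53% and 6.55%. The erythroid list had 3 of 3 detected, at 0.0498% and 0.0308%, and the leukocyte list 3 of 3, at 0.0842% and 0.0597%. The muscle list had 1 of 5 detected, Mir206 at 172 CPM in pup 1 and 157 CPM in pup 3, and the list held 0.0174% and 0.0159%. Mir1a-1, Mir133a-1 and Mir133a-2 were at 0 counts in both pups. With reads that match several genes left out, 0 counts do not show absence. By summed share, 5 of the 6 lists were lower in pup 3, all but the vessel list, but on these library totals the median detected gene was also at a log2 difference of -0.14, and genes within lists differed in direction. In the vessel list Mir145a had a log2 difference of -0.09 and Mir126a one of 0.36, and in the leukocyte list Mir223 had 0.02 and Mir150 -0.57. The erythroid sum followed Mir451a, while Mir144 and Mir486 were higher in pup 3 and the list's median log2 difference was 0.22. The neuronal list had a median log2 difference of -0.10, with Mir137 at 0.13, Mir129-2 at -0.08 and Mir128-1 at -0.13. Of its 10 genes, 2 were called, against 6.69% of all genes tested in either direction. These were Mir124a-1 and Mir124a-3, both lower and both on under 100 counts, with reads that match several genes left out. The part of these cell types in the differences of Mir10a and Mir10b was not tested.

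The seeds were also looked for in messengers of the clusters, since Hox messengers are known targets of these miRNAs. Hox messengers were not measured here, so this is a description of the annotation. The longest annotated 3′ untranslated region of each of the 39 Hox genes was searched on its own strand, beside those of all 20999 genes with one. The match to the miR-196 seed, ACTACCT, was in 9 of the 39 Hox genes (23.1%) and in 6.10% of all genes. The Hox genes held 13 matches, 0.340 per kb against 0.0454 per kb over all genes. Median lengths were 966 and 961 nt. Hoxa7 held 4 of the matches and Hoxc8 held 2, and among those with 1 were Hoxa5, Hoxa9, Hoxb6 and Hoxb7. This motif overlaps that of let-7, since bases 3 to 9 of let-7g-5p are the miR-196 seed. The match to the miR-10 seed, ACAGGGT, was in 4 Hox genes, Hoxb3 and Hoxd1 among them. That is 10.3%, against 12.5% of all genes, but at 0.105 per kb against 0.0997 per kb over all genes. The match to the miR-615-3p seed, GGCTCGG, was in 1 Hox gene, Hoxb4 (2.56%, against 2.3%), at 0.0262 per kb against 0.0163 per kb. The match to the miR-615-5p seed, GGACCCC, was in 4 Hox genes (10.3%, against 6.58%), at 0.105 per kb against 0.0491 per kb over all genes. Paralogous Hox genes share ancestry and are not independent.

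The site of longest pairing for miR-196a-5p among Hox genes was in Hoxb8, a gene of the same cluster as Mir196a-1, with no plain seed match. It is shown with a Hoxa7 and a Hoxc8 site, on mm10, with the bases opposite the seed in capitals.
Hoxb8, chr11:96284888-96284909, plus strand: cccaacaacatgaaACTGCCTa
Hoxa7, chr6:52215210-52215231, minus strand: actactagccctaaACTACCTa
Hoxc8, chr15:102993733-102993754, plus strand: taaatctttaacatACTACCTa

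In Hoxb8 all 22 bases of miR-196a-5p can pair, 21 as Watson-Crick pairs and 1 as a wobble pair of G and U at base 5 of the miRNA. With miR-196b-5p 21 of 22 pair, the exception being base 12, where the 2 miRNAs differ. Of the 20999 genes searched, 1 other gene had a window that paired as fully with miR-196a-5p. For miR-196b-5p, 14 other genes had a window that paired as fully as that of Hoxb8. The Hoxa7 site has 14 Watson-Crick pairs and the Hoxc8 site 12. The genes of this seed had the fewest counts in the set, at 26.9 CPM in pup 1 and 19.2 CPM in pup 3 for Mir196b and the Mir196a genes together, with shared miR-196a-5p reads left out.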

How the data were processed

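MicroRNA-seq was analysed for 2 newborn mouse hindbrains. For each library the authors deposited raw read counts by miRNA gene, in whole numbers, for either strand, the gene's own strand and the opposite strand. The assembly was mm10 and the annotation M4, per the text files deposited beside them. Aligner and counter: not given in the sources used here. Own-strand counts were used. Rows for unmapped, multiply matching and featureless reads name no gene and stayed out of totals. Own-strand gene counts were 40.5% and 43.6% of reads in the tables.

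IDs were matched without version to GENCODE M21 (1894 of 1973). CPM are on library totals. TMM factors and the common dispersion came from edgeR 4.0.16, size factors for an alternative from DESeq2 1.42.0, and exact binomial and Fisher tests from scipy 1.17.1. No residual degrees of freedom exist for a quasi-likelihood test of 1 library against 1. The calling step was tested on simulated data. P-values cover counting error only. A gene was called where it differed 2-fold and its adjusted p was under 0.05.

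Named genes are the 6 members, the miR-10 family, the 3 genes nearest in difference to Mir10a and to Mir10b, and up to 3 of highest mean CPM per marker list. Zero-count muscle genes, Mir124a-1, Mir124a-3 and Hox target genes were named after their values were seen. The members, lists and tests were chosen with earlier results of these data known. Mir9-1, Mir142 and Mir1a-2 were not analysed here. Alternatives covered strand, scaling, pseudocount, filters, fold and each pup left out. Target sites come from the GENCODE M21 transcripts, and not every Hox gene with a match is reported here.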

Additional observations from a re-analysis of the deposited data

How the results depend on the processing

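Of 87 alternative values, 81 were counted as kept, by direction and side of the threshold or a move smaller than the spread between pups. With 2 pups, leaving 1 out always moves a mean by less than the SD, so those means could not count as moved. The log2 difference of Mir196a-2 counted as kept, though it passed 2-fold on library totals and with a pseudocount of 0.25 CPM. The number of Hox cluster miRNA genes called, of 5 tested, went from 0 to 1 (Mir196a-2) on library totals, where 42 of all 508 tested were called. It was 1 (the same gene) with a pseudocount of 0.25 CPM, and 4 with no minimum fold. Over all genes, 34 calls became 18 when 100 counts in sum were needed, 245 with no minimum fold, and 17 with a pseudocount of 5 CPM (0.25 CPM gave 38). The pseudocounts were applied to the calls after seeing the data. The share of calls lower in pup 3 was 85.3% with TMM, 75.8% with DESeq2 size factors, 90.5% on library totals, and all 18 were lower with 100 counts in sum. Library totals moved the log2 difference of detected genes by a median of -0.13. All 5 detected Hox cluster genes had negative differences under each scaling, pseudocount and strand choice. Leaving out 1 pup gave a summed share of 3.50% to 5.26% and a ratio of Mir10a to Mir10b of 1.62 to 2.45. No paired analysis was possible because the series has 1 group. Depth limits Mir196a-1, at 1 and 2 counts, and Mir196a-2, at 36 and 19, and reads of miR-196a-5p that match both genes are in neither.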
